A study of Mus musculus with 12 samples.

Results

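WNT ligands, secreted proteins that oppose WNT signalling, and Axin2, a gene that WNT signalling itself switches on, were followed through the growth plate hypertrophic zones of 4 mouse genotypes. The list held 10 genes: the ligands Wnt4, Wnt5a, Wnt5b, Wnt11 and Wnt10b, the secreted antagonists Frzb, Sfrp5, Dkk1 and Wif1, and Axin2. A gene was taken forward where a probe annotated to its symbol was above background, with a detection score (1 minus the detection p) over 0.95, on at least 3 of the 12 arrays. Of the 10 genes, 7 were named by the probe annotation, with 1 probe each, and all 7 passed. They were 7 of 7642 genes with a tested probe, and 12023 of the 45281 probes on the array were tested. Wnt11, Sfrp5 and Dkk1 were not named by the annotation used here and were not analysed. Wif1 and Wnt10b were each above background on only 4 arrays, so both entered through the genotypes in which they were brightest.

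The arrays measured RNA from hypertrophic zones cut out of 1 proximal tibial growth plate from each of 3 mice per genotype, all 2 weeks old and of mixed background, after 2 rounds of linear amplification. Wildtype (Wt) mice were compared with ColXN617K mice, a knock-in of the collagen X mutation p.Asn617Lys that causes Schmid metaphyseal chondrodysplasia, a dwarfism with an expanded hypertrophic zone. Xbp1CartΔEx2 mice lack exon 2 of Xbp1, a transcription factor of the unfolded protein response, in cells that have expressed a Col2a1-driven Cre, so that cells of other lineages in the same tissue retain it. C/X mice carry both the knock-in and the deletion. The study asked which changes caused by the misfolding collagen depend on XBP1. Whether the mice of a genotype were littermates was not stated.

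WNT proteins act over short distances. In the canonical branch they bind Frizzled and LRP receptors and stabilise beta-catenin, which works with TCF/LEF factors to switch on targets such as Axin2, a scaffold that in turn helps to destroy beta-catenin. Other ligands, Wnt5a and Wnt5b among them, signal mainly without beta-catenin, through ROR2, RYK and the planar polarity proteins. In the growth plate WNT signals bear on when chondrocytes stop dividing and enlarge, and on the conversion of calcified cartilage into bone.

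The labelled tissue was checked against its markers, and 7 of 7 tested hypertrophic chondrocyte genes were above background on every array of all 4 genotypes. Their summed intensity was 41986 to 53995 in wildtype and 51169 to 60950 in Xbp1CartΔEx2, against 9756 to 14432 in ColXN617K and 18901 to 22700 in C/X. By the rule defined below, 5 of these 7 were lower than wildtype in ColXN617K and 4 in C/X. Of all probes, 7.16% and 5.21% were lower in these comparisons. Vegfa and Panx3 passed in neither. The Xbp1 probe read 10.49 to 11.03 on the log2 scale in wildtype and 10.82 to 10.96 in Xbp1CartΔEx2. Where it lies relative to the deleted exon is not known here, so it does not check the labels. Replicate 3 of ColXN617K and of C/X stood apart from the other arrays of its genotype. Only 17.1% of probes were above background on ColXN617K replicate 3, against 26.1% and 28.4% on the other ColXN617K arrays, and only 17.2% on C/X replicate 3, against 23.2% and 24.4%. That share was 17.3% to 17.7% in wildtype and 19.6% to 23.1% in Xbp1CartΔEx2. The weakest correlation of any array pair within a genotype fell to 0.867 among the ColXN617K arrays and 0.915 among those of C/X, against 0.957 for wildtype and 0.960 for Xbp1CartΔEx2. Because these are bulk samples, fewer cells of a type and less RNA per cell cannot be told apart.

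In ColXN617K, 4 of the 7 members were differentially expressed versus wildtype and all 4 were lower: the ligands Wnt4 and Wnt5b, the antagonist Frzb and the target Axin2. Differentially expressed here means a fold difference of at least 2 with an adjusted p of 0.01 or less, by limma with Benjamini-Hochberg adjustment over all 12023 probes. By that rule 7.16% of all probes were lower and 7.31% were higher in the same comparison. In C/X versus wildtype 2 members, Frzb and Axin2, were lower, where 5.21% of all probes were lower and 6.52% higher. Loss of XBP1 alone left 6 of the 7 short of the threshold, and Wif1 was higher, in a comparison with 1.17% of all probes higher and 0.591% lower. Versus wildtype, the members' median log2 fold change stood at -1.90 for ColXN617K, -1.08 for C/X and -0.21 for Xbp1CartΔEx2, where the medians of all probes were 0.00, 0.02 and 0.01. These 3 comparisons share the wildtype arrays.

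**Figure D1:**
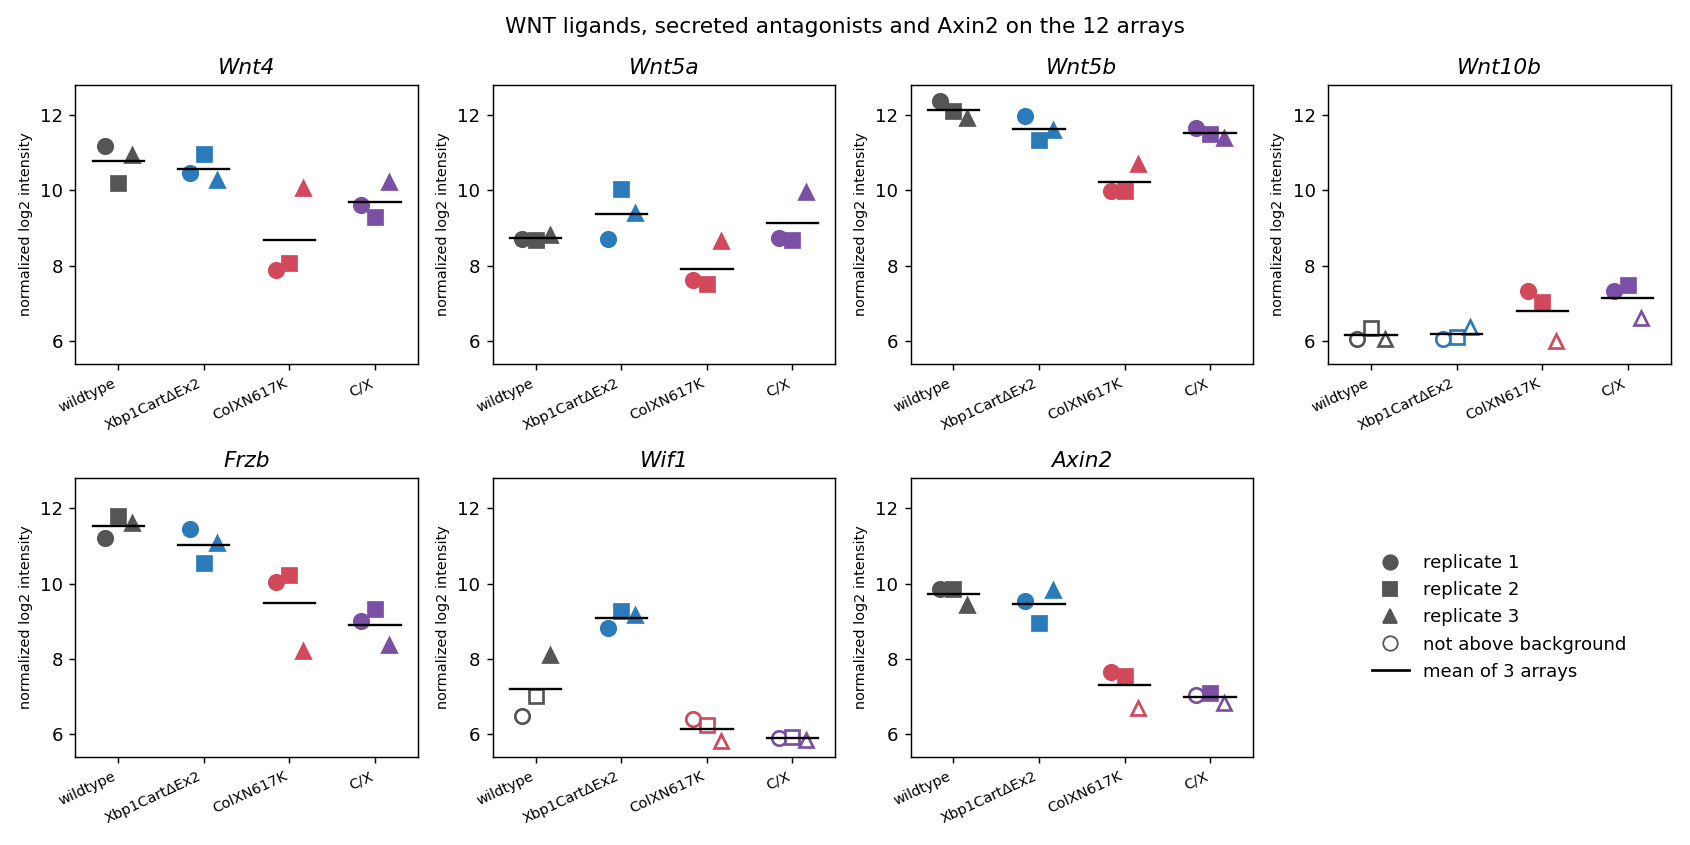
Normalized log2 intensity of each of the 7 members (vertical axis, the same range in every panel) on each array, by genotype. Symbols give the replicate, open symbols are arrays on which the probe was not above background, and lines are means of 3 arrays. Axin2 lies between 9.44 and 9.86 in wildtype and between 6.84 and 7.08 in C/X.

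Wnt5b, a ligand that in the mouse growth plate is made by prehypertrophic chondrocytes and acts mainly without beta-catenin, was above background on all 12 arrays. Its normalized log2 intensity was 12.38, 12.10 and 11.91 in wildtype, and 11.98, 11.34 and 11.61 in Xbp1CartΔEx2. In ColXN617K it was 9.99, 9.97 and 10.71, and in C/X 11.67, 11.49 and 11.39. The 3 ColXN617K arrays were the lowest of the 12 and overlapped no other genotype. The C/X arrays lay just below wildtype and among those of Xbp1CartΔEx2. Wnt5b was 3.74-fold lower in ColXN617K than in wildtype (log2 fold change -1.90, SE 0.25, adjusted p = 0.000162). In C/X it differed from wildtype by -0.61 (95% interval -1.16 to -0.07, adjusted p = 0.0924) and did not pass. C/X and Xbp1CartΔEx2 differed by -0.13, with an interval from -0.67 to 0.42.

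The direct comparison of the 2 collagen X mutants placed Wnt5b 2.45-fold lower in ColXN617K than in C/X (log2 fold change -1.29, SE 0.25, adjusted p = 0.00569), the only member that passed between them. In that comparison 3.34% of all probes were lower in ColXN617K. The effect of the collagen X mutation with XBP1 present minus its effect without XBP1, the interaction, was -1.78 for Wnt5b (interval -2.55 to -1.01, adjusted p = 0.0126) and missed the threshold. None of the 7 members passed there, while 1.71% of all probes did in either direction. The lower level in ColXN617K versus wildtype passed with any 1 array left out, at -2.13 to -1.76. The difference between ColXN617K and C/X did not: it lost its call when any 1 of 7 arrays was left out (wildtype replicate 2, Xbp1CartΔEx2 replicate 3, ColXN617K replicates 1 and 2, and each C/X array), with values of -1.52 to -1.17 and adjusted p of 0.000989 to 0.0263 over all 12 omissions.

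A window of the Wnt5b gene is shown because it was the only one, among those of the members measured, with letters that TCF/LEF factors are known to bind. It is the 250 bases before the last of 3 annotated starts on chr6:119449387-119449636, minus strand, of GRCm38.p6 from RefSeq, with the match in capitals, 71 bases before the start.
Wnt5b, last start: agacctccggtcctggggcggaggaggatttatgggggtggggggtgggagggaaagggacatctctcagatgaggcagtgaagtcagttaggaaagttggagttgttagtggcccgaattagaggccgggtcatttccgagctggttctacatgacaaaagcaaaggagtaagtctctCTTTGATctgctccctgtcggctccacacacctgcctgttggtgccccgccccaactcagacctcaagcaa
The search was for CTTTGAA or CTTTGAT, and likewise CTTTGTA or CTTTGTT, on either strand, and 14.8% of all 32851 such windows held at least 1 of them. The array does not tell which start the Wnt5b RNA came from.

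Wnt4, a ligand known in the mouse growth plate from prehypertrophic cells and the joint-forming tissue, was also above background on all 12 arrays. Its log2 intensity was 11.19, 10.21 and 10.94 in wildtype, and 10.46, 10.97 and 10.26 in Xbp1CartΔEx2. It was 7.89, 8.06 and 10.07 in ColXN617K, and 9.62, 9.28 and 10.21 in C/X. All ColXN617K arrays were below wildtype, but replicate 3 of that genotype was close to the wildtype range while the others were far below it. In C/X the highest array reached the lowest wildtype array. Wnt4 was 4.31-fold lower in ColXN617K than in wildtype (log2 fold change -2.11, SE 0.50, adjusted p = 0.00758). In C/X the difference was -1.08 (interval -2.16 to 0.01, adjusted p = 0.136), and between ColXN617K and C/X it was -1.03 (interval -2.12 to 0.06, adjusted p = 0.197). The ColXN617K call was lost when any 1 of 8 arrays was left out (wildtype replicates 1 and 3, each Xbp1CartΔEx2 array, ColXN617K replicates 1 and 2, and C/X replicate 1), over values of -2.80 to -1.71 and adjusted p of 9.81e-05 to 0.0370. With the third array of each collagen X mutant set aside, Wnt4 was at -2.81 in ColXN617K (adjusted p = 3.62e-05). It then also passed in C/X, at -1.31 (adjusted p = 0.00456). This omission was chosen after seeing the data, and it removed the array of each genotype on which Wnt4 was nearest to wildtype.

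Wnt5a, the ligand of the ROR2 receptor that orients cells and drives limb outgrowth, passed in no comparison. Its log2 intensity was 8.70, 8.69 and 8.81 in wildtype, and 8.71, 10.04 and 9.39 in Xbp1CartΔEx2. In ColXN617K it was 7.62, 7.51 and 8.65, and in C/X 8.74, 8.69 and 9.96. The ColXN617K arrays lay below wildtype without overlap, replicate 3 by a narrow margin, and C/X overlapped wildtype. The difference was -0.81 in ColXN617K versus wildtype (interval -1.71 to 0.09, adjusted p = 0.156) and -1.21 in ColXN617K versus C/X (interval -2.11 to -0.31, adjusted p = 0.0696). Without both replicates that stood apart, the difference from wildtype in ColXN617K was -1.23 and passed (adjusted p = 0.00590). That omission, chosen after seeing the data, removed the ColXN617K array nearest to wildtype.

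Wnt10b, a canonical ligand that in mice favours bone formation, was above background on 0 wildtype, 0 Xbp1CartΔEx2, 2 ColXN617K and 2 C/X arrays. Its log2 intensity was 6.04, 6.34 and 6.06 in wildtype, and 6.05, 6.12 and 6.38 in Xbp1CartΔEx2. It was 7.33, 7.04 and 6.01 in ColXN617K, and 7.32, 7.50 and 6.60 in C/X. Replicates 1 and 2 of both collagen X mutants were the 4 arrays above background, and replicate 3 of ColXN617K lay with wildtype. Since all wildtype arrays were below background, and the dimmest detected probes on those arrays were brighter than Wnt10b in the mutants, no fold difference can be given. The fitted differences of 0.64 in ColXN617K (adjusted p = 0.154) and 0.99 in C/X (adjusted p = 0.0431) versus wildtype did not pass. In ColXN617K Wnt10b was the only member with a positive value.

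**Figure D2:**
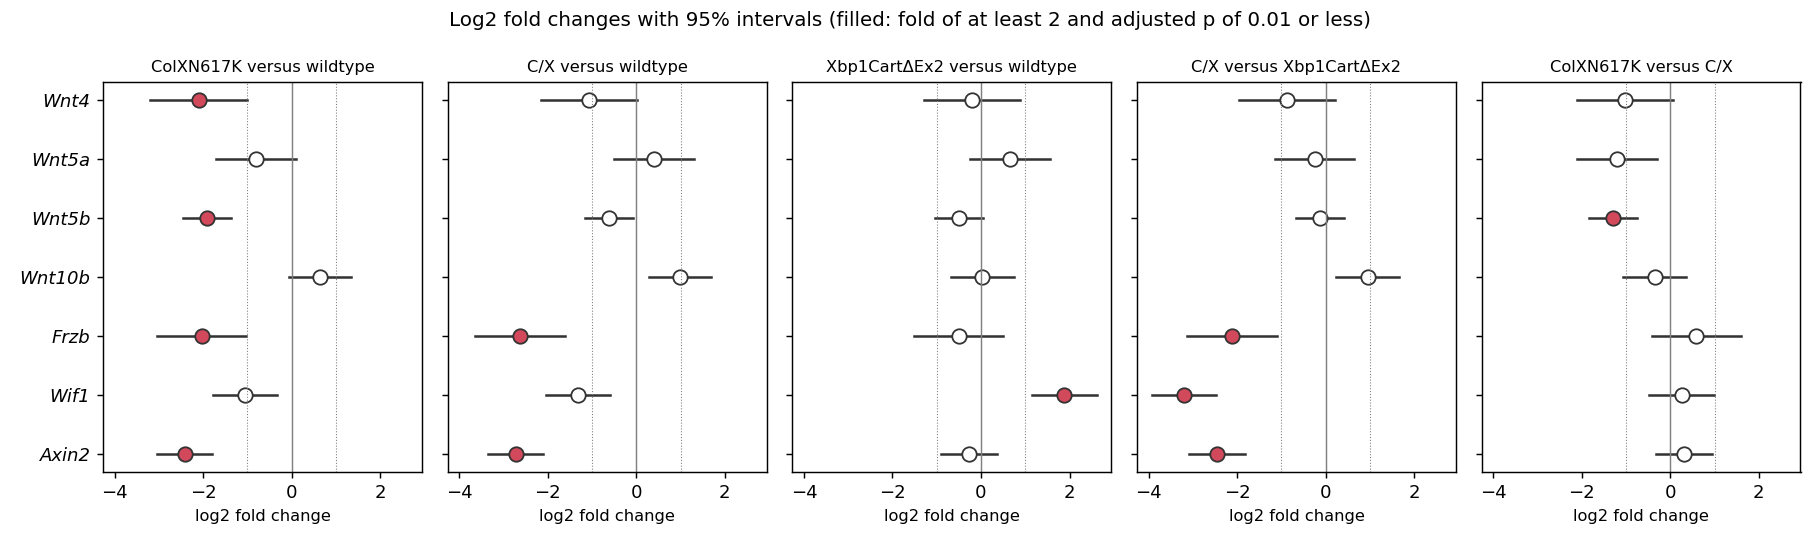
Log2 fold change of each member (horizontal axis, points, with 95% intervals from limma) in 5 comparisons, the first genotype named minus the second. Filled points passed a fold of 2 (dotted lines) and an adjusted p of 0.01. Against wildtype, Axin2 and Frzb lie at -2.42 and -2.04 for ColXN617K and at -2.73 and -2.62 for C/X.

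Frzb, which encodes secreted Frizzled-related protein 3 and is a long-known product of chondrocytes, was above background on all 12 arrays. Its log2 intensity was 11.21, 11.79 and 11.60 in wildtype, and 11.44, 10.56 and 11.07 in Xbp1CartΔEx2. It was 10.05, 10.23 and 8.21 in ColXN617K, and 9.01, 9.34 and 8.38 in C/X. All 6 arrays with mutant collagen X were below all 6 without it. In both collagen X mutants replicate 3 was the lowest. Frzb was 4.10-fold lower in ColXN617K (log2 fold change -2.04, SE 0.47, adjusted p = 0.00624) and 6.17-fold lower in C/X (log2 fold change -2.62, SE 0.47, adjusted p = 0.00159) than in wildtype. It was 4.34-fold lower in C/X than in Xbp1CartΔEx2 (log2 fold change -2.12, adjusted p = 0.00516), a comparison in which 7.6% of all probes were lower and 6.06% higher. ColXN617K and C/X differed by 0.59, with an interval from -0.42 to 1.60, and the interaction was 0.08, with an interval from -1.35 to 1.51. The ColXN617K call was lost when any 1 of 4 arrays was left out (each wildtype array and Xbp1CartΔEx2 replicate 3), over values of -2.41 to -1.38 and adjusted p of 0.00381 to 0.0250. The C/X call passed with any 1 array left out, at -2.86 to -2.35. The call against Xbp1CartΔEx2 was lost without Xbp1CartΔEx2 replicate 1 or 3, or C/X replicate 1 or 3, at adjusted p of up to 0.0262.

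Wif1, which encodes WNT inhibitory factor 1 and in mice is made by osteoblasts and at the borders of cartilage, was above background on 1 wildtype array, 3 Xbp1CartΔEx2 arrays and 0 arrays of either collagen X mutant. Its log2 intensity was 6.48, 7.03 and 8.11 in wildtype, of which only replicate 3 was above background, and 8.82, 9.28 and 9.17 in Xbp1CartΔEx2. It was 6.39, 6.23 and 5.83 in ColXN617K, and 5.91, 5.92 and 5.84 in C/X. The 3 Xbp1CartΔEx2 arrays were the highest of the 12 and overlapped no other genotype. Wif1 was 3.69-fold higher in Xbp1CartΔEx2 than in wildtype (log2 fold change 1.88, SE 0.34, adjusted p = 0.00753). With each wildtype array counted at no less than the dimmest signal detected on it, the difference was 2.47-fold. Wif1 entered the tested probes only through the Xbp1CartΔEx2 arrays, where it is high, and 1 wildtype array. The call was lost when any 1 of 9 arrays was left out (wildtype replicates 1 and 2, each Xbp1CartΔEx2 array, ColXN617K replicate 1 and each C/X array), over values of 1.55 to 2.37 and adjusted p of 0.00119 to 0.0447, and it was kept without the other 3.

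Compared with C/X, the Xbp1CartΔEx2 level of Wif1 was at least 3.47-fold higher, counting C/X at the dimmest signal detected on its arrays (log2 fold change of the measured values in C/X versus Xbp1CartΔEx2 -3.20, adjusted p = 4.03e-05). This passed with any 1 array left out, at -3.37 to -3.07. The adjusted p and these calls belong to a probe that entered the tests through the Xbp1CartΔEx2 arrays, where it is high. Wildtype Wif1, above background on only 1 array, lay too near background to give a bound against either collagen X mutant. The fitted differences from wildtype were -1.06 in ColXN617K (adjusted p = 0.0326) and -1.32 in C/X (adjusted p = 0.0131), and neither passed. The interaction was 2.15 (interval 1.11 to 3.18, adjusted p = 0.0210).

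Of the markers of osteoblasts, periosteum and perichondrium, 6 of 10 were tested and 0 passed in Xbp1CartΔEx2 versus wildtype. Their summed intensity was 6431 to 13114 in Xbp1CartΔEx2, against 3105 to 3854 in wildtype, 3048 to 4841 in ColXN617K and 3624 to 5357 in C/X, so that Xbp1CartΔEx2 was above wildtype without overlap and the collagen X mutants were not below it. Of these 6, the osteoblast gene Bglap was above background on no wildtype and no C/X array. Endothelial markers (11 of 15 tested) summed to 17289 to 30760 in Xbp1CartΔEx2, 6906 to 16784 in wildtype, 1509 to 1775 in ColXN617K and 1644 to 4078 in C/X. Their part in the Wif1 difference was not tested.

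Axin2, the feedback target, was above background on 9 of the 12 arrays. Its log2 intensity was 9.86, 9.84 and 9.44 in wildtype, and 9.54, 8.96 and 9.84 in Xbp1CartΔEx2. It was 7.65, 7.55 and 6.70 in ColXN617K, of which replicates 1 and 2 were above background, and 7.04, 7.08 and 6.84 in C/X, of which only replicate 2 was. The 6 arrays with mutant collagen X were again all below the 6 without it. Axin2 was 5.34-fold lower in ColXN617K (log2 fold change -2.42, SE 0.29, adjusted p = 8.59e-05) and 6.63-fold lower in C/X (log2 fold change -2.73, SE 0.29, adjusted p = 4.55e-05) than in wildtype. Xbp1CartΔEx2 overlapped wildtype, with a difference of -0.27 (interval -0.90 to 0.36). C/X was 5.49-fold lower than Xbp1CartΔEx2 (log2 fold change -2.46, SE 0.29, adjusted p = 8.36e-05). Each of these 3 calls passed with any 1 array left out, with log2 fold changes of -2.58 to -2.13, -2.90 to -2.63 and -2.67 to -2.26 in the order given. With each collagen X mutant array counted at no less than its dimmest detected signal, the 3 differences were -2.08, -2.42 and -2.15, or 4.23-fold, 5.34-fold and 4.43-fold. ColXN617K and C/X differed by 0.31 (interval -0.31 to 0.94), and the interaction was 0.04 (interval -0.84 to 0.93).

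Axin2 and Frzb were the members lower in both collagen X mutants, and the bases before their starts are shown for that reason. The window of Axin2 lies on chr11:108920099-108920348, plus strand, and that of Frzb on chr2:80447397-80447646, minus strand, of GRCm38.p6, each 250 bases from RefSeq ending at the start.
Axin2: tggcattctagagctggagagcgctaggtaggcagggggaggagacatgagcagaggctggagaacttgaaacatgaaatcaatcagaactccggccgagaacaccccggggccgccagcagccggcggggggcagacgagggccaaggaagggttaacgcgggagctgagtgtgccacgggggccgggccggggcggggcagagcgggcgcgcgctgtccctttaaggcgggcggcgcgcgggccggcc
Frzb: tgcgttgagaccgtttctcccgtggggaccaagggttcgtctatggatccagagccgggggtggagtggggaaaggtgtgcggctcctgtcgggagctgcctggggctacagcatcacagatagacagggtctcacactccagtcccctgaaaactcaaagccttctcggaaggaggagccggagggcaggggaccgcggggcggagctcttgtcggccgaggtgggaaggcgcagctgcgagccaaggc
Neither held 1 of the 4 TCF/LEF letter strings on either strand, so no letters are in capitals. Of the list, 9 of 10 genes, all but Wnt5a, had a window in the table, 12 windows in all, and 3 of these matched: the Wnt5b window above and a window each of Wnt11 and Dkk1, which were not measured. Nothing was tested that ties these letters to the levels. G and C made up 69.2% of the Axin2 window and 64.4% of the Frzb window.

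**Figure D3:**
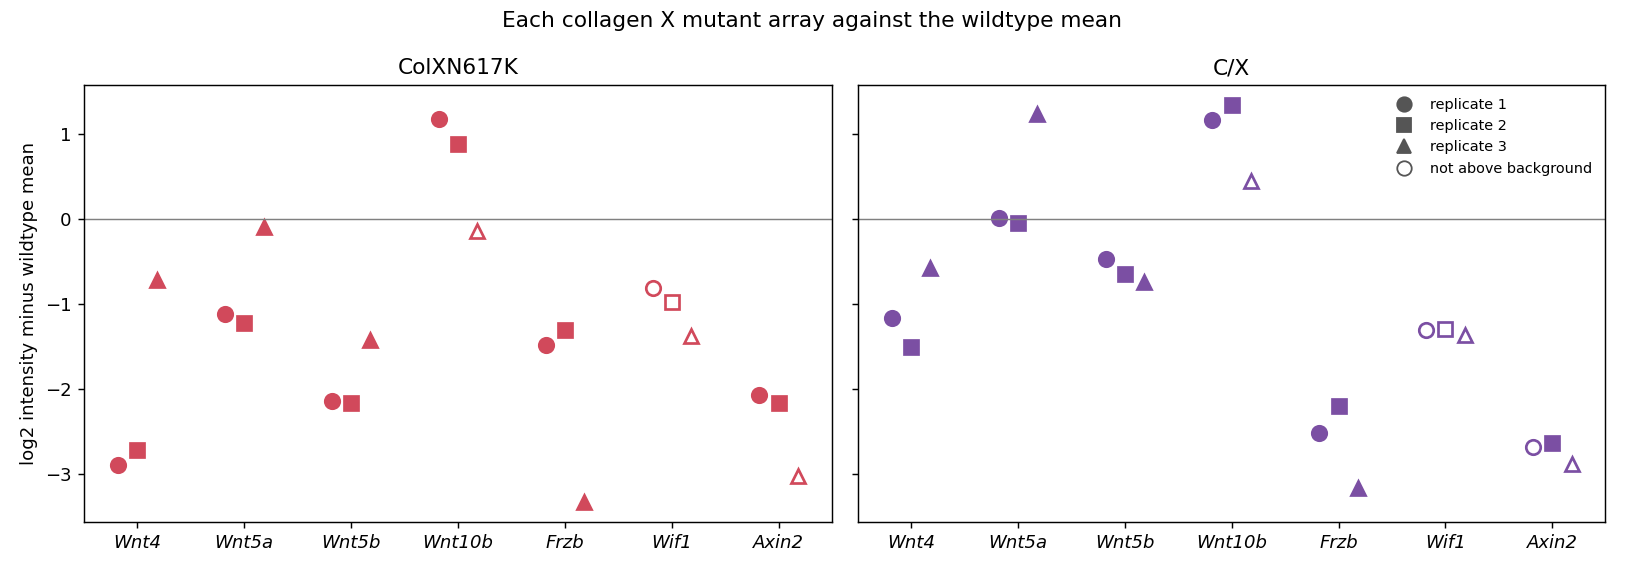
Log2 intensity minus the wildtype mean (vertical axis) for each member on each array of ColXN617K (left) and C/X (right). Open symbols were not above background. In ColXN617K, replicate 3 lies above the others for Wnt4, Wnt5a and Wnt5b and below them for Wnt10b, Frzb, Wif1 and Axin2.

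The members differed in where the replicates that stood apart lay, as the plot of each collagen X mutant array against the wildtype mean shows. On ColXN617K replicate 3, Wnt4, Wnt5a and Wnt5b were nearer to wildtype than on its companions, whereas Frzb and Axin2 were further below. On C/X replicate 3 Wnt4 and Wnt5a were likewise the highest of their genotype, and Frzb and Axin2 the lowest, but Wnt5b, at 11.39, was the lowest too. Without both arrays Frzb and Axin2 were still lower in ColXN617K, at -1.37 (adjusted p = 0.00149) and -2.17 (adjusted p = 5.99e-05), and in C/X, at -2.33 (adjusted p = 8.39e-05) and -2.75 (adjusted p = 1.96e-05). This omission was chosen after the data had been seen.

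Summed marker levels of several other cell types were also lower in the collagen X mutants than in wildtype. Osteoclast and macrophage genes (7 of 9 tested) summed to 28298 to 43193 in wildtype and 41160 to 49271 in Xbp1CartΔEx2, but to 7664 to 11865 in ColXN617K and 12107 to 26726 in C/X. The osteoclast enzyme gene Acp5 was above background on no array of either collagen X mutant. The endothelial genes Cdh5, Pecam1 and Ramp2 were on none either, although Pecam1 was not above background in wildtype. Of the 11 tested endothelial genes, each collagen X mutant had 9 that passed as lower than wildtype. The endothelial gene Vwf, above background on no wildtype array, went the other way. It was higher in C/X, at 1.54, and its 0.98 in ColXN617K did not pass. Red blood cell genes (4 of 8 tested) summed to 16057 to 26595 in wildtype, 4962 to 6151 in Xbp1CartΔEx2, 2112 to 7708 in ColXN617K and 1426 to 2820 in C/X. Genes of the other chondrocyte zones (9 of 13 tested) summed to 92817 to 97386 in wildtype, 85876 to 98164 in Xbp1CartΔEx2, 71478 to 83460 in ColXN617K and 65613 to 77883 in C/X. Of these 9, only Pth1r was lower in ColXN617K and only Matn1 in C/X versus wildtype. Sox6, above background on no wildtype array, was higher in C/X, at 2.43. The median log2 fold change of the 9 was -0.20 in ColXN617K and -0.21 in C/X. The part of any of these shifts in the WNT results was not tested.

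The rest of the WNT pathway was read from a list of 141 further genes, of which 70 had a tested probe. Each gene was read at its brightest tested probe. The shares of all probes set beside these genes also count dimmer probes of a gene and probes without 1 gene symbol. In ColXN617K versus wildtype 14 of the 70 were lower (20%) and 2 higher (2.86%), against 7.16% and 7.31% of all probes. In C/X versus wildtype 8 were lower (11.4%) and 5 higher (7.14%), against 5.21% and 6.52%. In C/X versus Xbp1CartΔEx2 18 were lower (25.7%) and 0 higher, against 7.6% and 6.06%. In Xbp1CartΔEx2 versus wildtype 1 was lower (1.43%) and 2 were higher (2.86%), against 0.591% and 1.17%. The median log2 fold change of the 70 was -0.41, -0.28, -0.21 and 0.28 in these 4 comparisons, in that order.

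**Figure D4:**
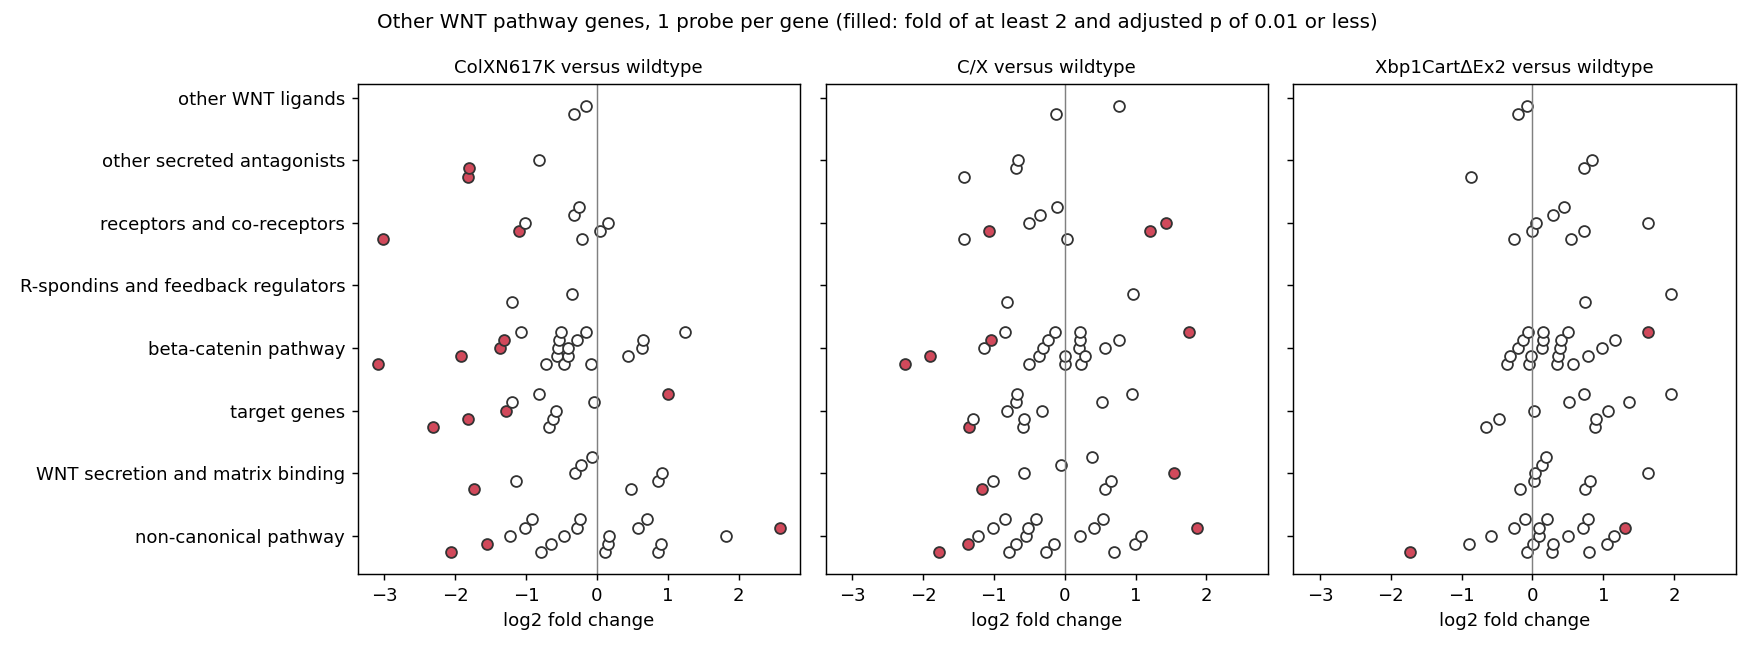
Log2 fold change (horizontal axis) of the tested genes of 8 WNT pathway lists, in ColXN617K, C/X and Xbp1CartΔEx2 versus wildtype, with vertical offsets for legibility only. Filled points passed a fold of 2 and an adjusted p of 0.01, and Apcdd1 and Notum stand in 2 lists each. In ColXN617K the leftmost points are Tcf7l2 at -3.09 and Lrp4 at -3.02.

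TCF/LEF factors, which act with beta-catenin, were among the lower genes. Tcf7l2 was lower, at -3.09 in ColXN617K (adjusted p = 0.000232) and at -2.26 in C/X (adjusted p = 0.00233) versus wildtype, and Tcf7l1, which mostly represses targets, at -1.32 (adjusted p = 0.00259) and -1.90 (adjusted p = 0.000277). Of the 20 tested genes of the beta-catenin pathway 4 were lower in ColXN617K, the others being the kinase gene Csnk1e at -1.91 and Ctnnbip1, an inhibitor of the beta-catenin and TCF pairing, at -1.36. Csnk1e was also lower in C/X, at -1.04, and the -1.14 of Ctnnbip1 there did not pass. Bcl9, a co-activator of beta-catenin, went the other way in C/X (1.76) and in Xbp1CartΔEx2 (1.64). Among 10 tested targets, the cyclin gene Ccnd1 was lower in ColXN617K, at -2.32, and its -1.30 in C/X did not pass. Ccn5 was lower in ColXN617K, at -1.82, and the receptor gene Tnfrsf19 in ColXN617K and C/X, at -1.28 and -1.36. Ccn4 was higher in ColXN617K, at 1.01.

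At the cell surface 8 receptor and co-receptor genes were tested. Lrp4, a co-receptor that in bone also presents sclerostin, was lower in ColXN617K at -3.02 (adjusted p = 0.000158), and its -1.42 in C/X did not pass. Ryk, a receptor of Wnt5a, was lower in both, at -1.10 and -1.07. Ror2, the other main receptor of Wnt5a, and Fzd6 were higher in C/X, at 1.43 and 1.21, and lower in ColXN617K than in C/X, at -1.38 and -1.06. Of 3 further WNT antagonists tested, Shisa2 and Igfbp4 were each lower in ColXN617K, at -1.81, and did not pass in C/X. None of 2 other ligands tested passed versus wildtype.

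Genes for making and moving WNT ligands included Wls, the carrier that takes WNT proteins to the cell surface. Wls was lower in ColXN617K, at -1.74, and its -1.02 in C/X did not pass. Porcn, the enzyme that adds the lipid WNT proteins need, was higher in C/X at 1.54, and the heparan sulphate proteoglycan gene Gpc3 was lower there at -1.16. Among 19 tested genes of the non-canonical branch, the planar polarity gene Vangl2 was lower in ColXN617K and C/X, at -2.06 and -1.36, and so was Prickle2, at -1.55 and -1.78. Prickle1 was higher in all 3 mutants, by 2.58 for ColXN617K, 1.87 for C/X and 1.31 for Xbp1CartΔEx2, and it alone among the 70 passed for the interaction, at 2.02. Daam1 was lower in Xbp1CartΔEx2 at -1.73. Adjusted p was 0.01 or less for each gene said here to be lower or higher.

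The genes whose level over the 12 arrays was most like that of each differentially expressed member were found by Pearson correlation over all probes with 1 symbol, as a description in which the genotype differences and the 2 arrays that stood apart are shared by all points. For Axin2 they were Nkx6-1 (r = 0.988), Cds1 (0.981) and Dusp5 (0.975). For Wif1 they were Tbc1d2b (0.987), Hoxb2 (0.972) and Rgs16 (0.971). For Wnt5b they were Nyap1 (0.975), Tubb2b (0.971) and Mosmo (0.964). For Wnt4 they were Extl3 (0.979), Ubac2 (0.973) and Tab1 (0.969), and for Frzb Skap2 (0.972), Ttpal (0.966) and Efna5 (0.961).

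All of these values depend on the arrays having been brought to a common distribution. When arrays were only scaled to a common median, the median of all probes moved to 0.77 for ColXN617K and 0.40 for C/X against wildtype, and the split of calls in ColXN617K moved from 879 higher and 861 lower to 700 higher and 96 lower, and in C/X from 784 and 626 to 233 and 72. No member passed versus wildtype on that scale, where Axin2 was at -1.32 in ColXN617K (adjusted p = 0.0480) and -2.05 in C/X (adjusted p = 0.0162). Relative to the shifted median Axin2 was at -2.09 and -2.45, Frzb at -1.91 and -2.56, Wnt5b at -1.78 and -0.72 and Wnt4 at -1.98 and -0.95. In C/X versus Xbp1CartΔEx2 the median of all probes moved little, to 0.06, with the split of calls going from 729 higher and 914 lower to 124 and 277, and Axin2 (-2.41, adjusted p = 0.00599) and Wif1 (-3.23, adjusted p = 0.000369) still passed. In Xbp1CartΔEx2 versus wildtype the median moved to 0.34, and Wif1 was at 2.11 (adjusted p = 0.0229), or 1.77 relative to it.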

How the data were processed

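RNA was extracted from microdissected hypertrophic zones and hybridised to Illumina MouseWG-6 version 2 arrays with a single colour. The authors deposited, for each array, summarized probe intensities that were not yet normalized, a detection score beside each of them, and a separate table of log2 values normalized by the authors with limma. The authors deposited no negative control probes, no probe sequences and no genome build in the tables used here. The submitters' processing notes name limma, with no version given in the sources used here.

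Deposited intensities were corrected and quantile-normalized with the neqc function of limma 3.58.1 (R 4.3.3), with negative controls inferred from the detection scores and an offset of 16, which shrinks the fold changes of dim probes. The resulting log2 values differed from those the authors deposited by at most 0.0339 on any array. Probes with a detection score over 0.95 on at least 3 arrays were retained, 12023 of 45281, and 9866 of these had 1 gene symbol. The study's removal of poorly matching probes could not be repeated, because the quality grades were not among the files used here. The 12 arrays entered 1 limma model with a mean for each of 4 genotypes, and 6 contrasts were tested with empirical Bayes moderation and Benjamini-Hochberg adjustment within each contrast. The p-values rest on the spread between mice within genotypes, pooled for each probe over all 4 genotypes and moderated towards that of all probes. They do not measure the spread of any 1 genotype by itself. Deviations from the genotype means correlated at 0.37, 0.60 and 0.66 between ColXN617K and C/X arrays of the same number in the title, all over 0.1. No other pair of genotypes had all 3 correlations over 0.1. Even so, C/X replicate 1 correlated more with ColXN617K replicate 2 (0.43) than with ColXN617K replicate 1 (0.37). Deviations within a genotype cancel, so 1 array that stands apart in each genotype also raises such correlations. They therefore cannot show a pairing by number, and no label says that the number marks a litter or batch. An exact permutation test of 3 against 3 cannot go below p = 0.1 and was not used.

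All members were reported, at every probe that named them. Of 8 lists of other WNT pathway genes, those that passed in a comparison with wildtype were named, at the probe taken for each gene, and the 3 most alike genes were named for each member that passed. The members and the lists, marker lists included, were chosen with earlier results of these data known. With arrays, the number of mice limits the precision. Where a probe was above background on no array of a genotype, the dimmest signal detected on each of those arrays replaced it to give a bound. Normalization, background correction, detection filter, moderation, weights, thresholds and each array in turn were varied. The script was tested on simulated data before use.

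Promoter windows were taken from RefSeq's GRCm38.p6 table. Wnt5a was not in that table.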

Additional observations from a re-analysis of the deposited data

Results flagged for a closer look

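Wnt5b drew attention because it differed by a direct test between ColXN617K, which has XBP1, and C/X, which lacks it in chondrocytes. Its normalized log2 intensity was lower in ColXN617K than in C/X by -1.29 (SE 0.25, limma adjusted p = 0.00569), with all 3 ColXN617K arrays below all 3 C/X arrays. The interaction, which also takes account of the small difference of Xbp1CartΔEx2 from wildtype, was -1.78 (adjusted p = 0.0126) and did not pass at 0.01. The first of these calls was lost when any 1 of 7 of the 12 arrays was left out, at adjusted p of up to 0.0263.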

How the results depend on the processing

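Calls of Axin2 in both collagen X mutants and of Wnt5b in ColXN617K versus wildtype depended on scaling: with median scaling no member passed in ColXN617K, C/X or Xbp1CartΔEx2 versus wildtype or in ColXN617K versus C/X (0 each), though in C/X versus Xbp1CartΔEx2 2 did (Frzb lost). Without a detection filter 2 members passed in ColXN617K versus wildtype (Wnt4 and Frzb lost), 1 in C/X versus wildtype (Frzb lost), 0 in Xbp1CartΔEx2 versus wildtype, 2 in C/X versus Xbp1CartΔEx2 (Frzb lost) and 0 in ColXN617K versus C/X. With only the compared genotypes in the model the counts versus wildtype, in the same order, and between the collagen X mutants were 2, 2, 0 and 0. Array weights gave 6, 5, 1 and 3, with 3 in the interaction. Without background correction Wif1 no longer passed in Xbp1CartΔEx2 versus wildtype (0). The interaction, with 0 members at the main setting and 2 at an unadjusted p under 0.05, had 1 (Wnt5b) without background correction, with an offset of 50, with the filter of detection on all arrays of a genotype, and with trended and robust moderation, and 2 at an adjusted p of 0.05. Leaving out the third array of each collagen X mutant, chosen after seeing the data, made it 4 members in C/X versus wildtype, 2 between the collagen X mutants and 1 for the interaction. Apart from some given above for median scaling, the numbers of all probes that passed at these settings, and at those below, are not given. A change in these counts can therefore not be read as particular to the members. The causes were not tested.

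Leaving out each array in turn gave 2 to 5 members in ColXN617K versus wildtype, 2 to 4 in C/X versus wildtype, 0 to 1 in Xbp1CartΔEx2 versus wildtype, 0 to 2 between ColXN617K and C/X, and 0 to 2 for the interaction. Leaving out ColXN617K replicate 3 gave the highest of these counts, apart from Xbp1CartΔEx2 versus wildtype.

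Replicate numbers were not shown to pair the arrays: correlations of deviations between arrays of the same number ran from -0.33 to 0.66, 7 of 18 were above 0.1, and 6 of 12 arrays correlated best with their own number. With the replicate block from the titles, 0 members passed in Xbp1CartΔEx2 versus wildtype (Wif1 lost) and no other call changed, that of Wnt5b between the collagen X mutants included (-1.29, adjusted p = 0.00666). The description field numbers the arrays differently, and with that replicate block 2 members passed in ColXN617K versus wildtype (Wnt4 and Frzb lost), 0 in Xbp1CartΔEx2 versus wildtype and 2 in C/X versus Xbp1CartΔEx2 (Frzb lost).

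Changes of direction were found only for differences that had not passed. Median scaling gave Wnt5a 0.0876 in ColXN617K versus wildtype and 0.31 in the interaction, and Wnt4 0.30 and Axin2 0.36 in Xbp1CartΔEx2 versus wildtype. Without background correction the interaction was -0.0322 for Frzb and -0.0464 for Axin2, and with array weights it was 0.12 for Wnt10b. With the replicate block from the descriptions Wnt10b was at -0.0859 in Xbp1CartΔEx2 versus wildtype and Wnt5b at 0.10 in C/X versus Xbp1CartΔEx2. Without both replicates that stood apart Wnt5a was at -0.0163 in C/X versus wildtype. Over single omissions the interaction ran from -0.15 to 0.36 for Axin2, from -0.29 to 0.72 for Frzb and from -0.60 to 0.0773 for Wnt10b. Wnt10b ran from -0.64 to 0.0441 in ColXN617K versus C/X and from -0.0634 to 0.13 in Xbp1CartΔEx2 versus wildtype, Wnt5a from -0.66 to 0.0853 in C/X versus Xbp1CartΔEx2 and from -0.0162 to 0.63 in C/X versus wildtype, and Wnt5b from -0.28 to 0.0434 in C/X versus Xbp1CartΔEx2. Signal near background limits Wnt10b and Wif1, and Axin2 in the collagen X mutants.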
